A study of Drosophila melanogaster with 48 samples.

Results

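The genes of the mitochondrial genome were taken as all genes whose symbol begins with mt: and made up 37 of the 17481 genes of the count table. They are 13 protein-coding genes, 2 rRNA genes and 22 tRNA genes. The mitochondrial DNA of an animal comes from the egg. It is transcribed from both strands into long RNAs by a polymerase of its own, PolrMT. These RNAs are cut, often at the tRNAs that lie between the other genes, into mRNAs, rRNAs and tRNAs. The mRNAs encode core subunits of the complexes of oxidative phosphorylation. The remaining subunits, and all of the proteins that copy, transcribe and process mitochondrial DNA and RNA, are encoded in the nucleus.

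RNA was sequenced from single whole embryos of Drosophila melanogaster at stage 2, when the RNA of the embryo's nuclear genes comes from the mother, and at late stage 5, the end of the blastoderm, when the zygotic genome is active. The 4 Raleigh lines (RAL307, RAL357, RAL360 and RAL517, from North Carolina) and the 4 Zambia lines (ZI050, ZI094, ZI160 and ZI470) gave 3 embryos per line and stage, or 48 embryos in 16 groups. The lines are inbred isofemale lines. The labels name no treatment, give the sex of the stage 2 embryos as unknown and that of the stage 5 embryos as XY, and give an age of 3 to 10 days for the mothers of all groups. Stage and known sex thus go together, and their parts in a change with stage cannot be told apart. The study asked how far RNA levels differ between stages, lines and populations. Each line stands for its own genotype, so the 3 embryos of a line repeat that line and not the population.

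Library size was alike in 47 embryos, at 25090803 to 30783589 counts. The library of RAL360 stage 5 embryo 3 had 340746 counts, so that 1 of its counts was worth 2.93 CPM. CPM is the count of a gene relative to the library total, with totals scaled by the trimmed mean of M-values (TMM). ZI470 stage 2 embryo 1 stood apart: its deviations from the mean of the stage correlated with those of its line mates at a median of -0.04, where the next lowest value of any embryo was 0.22. No 2 libraries held the same values. Known markers followed the stage labels: the maternal transcript osk was at 788 to 1402 CPM at stage 2 and at 2.94 to 11.9 CPM at stage 5, and the zygotic transcript ftz at 0.22 to 1.60 and 310 to 507 CPM. The summed level of 10 eggshell genes of the follicle cells, the cells that could cling to an egg, was 0 to 0.46 CPM at stage 2 and 0 to 5.13 CPM at stage 5. Most of the stage 5 sum was Cp18, with 887 counts over the embryos, where no other of the 10 genes had more than 66.

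The protein-coding genes lie on both strands of the mitochondrial genome (chromosome mitochondrion_genome, build BDGP6). Complex I (NADH dehydrogenase) has mt:ND2 at 240 to 1263, mt:ND3 at 5608 to 5961 and mt:ND6 at 9971 to 10495 on the plus strand, and mt:ND5 at 6409 to 8125, mt:ND4 at 8207 to 9545, mt:ND4L at 9545 to 9835 and mt:ND1 at 11721 to 12659 on the minus strand. The remaining mRNAs are read from the plus strand: mt:Cyt-b of complex III at 10499 to 11635, mt:CoI, mt:CoII and mt:CoIII of complex IV (cytochrome c oxidase) at 1474 to 3009, 3083 to 3767 and 4736 to 5524, and mt:ATPase8 and mt:ATPase6 of complex V (ATP synthase) at 3907 to 4068 and 4062 to 4736. The large rRNA mt:lrRNA (FBgn0013686, 12735 to 14058) and the small rRNA mt:srRNA (FBgn0013688, 14131 to 14916) of the mitochondrial ribosome are on the minus strand. Neighbouring genes of 1 strand share bases in 3 places, namely 7 bases of mt:ATPase8 and mt:ATPase6, 1 base of mt:ATPase6 and mt:CoIII and 1 base of mt:ND4 and mt:ND4L. How reads over such junctions were assigned is not given in the sources used here, so the levels of the short genes mt:ATPase8 (162 bases) and mt:ND4L (291 bases) are uncertain. The term mRNA stands here for a protein-coding gene, and genes that overlap need not give separate RNAs.

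Mitochondrial genes took 2.28% of all counts at stage 2 (SD 0.474 over 8 line means) and 4.01% at stage 5 (SD 0.627). A single RNA, mt:lrRNA, made up 80.2% of the mitochondrial counts at stage 2 (SD 3.87) and 77.6% at stage 5 (SD 2.59). The 13 mRNAs together took 0.463% of all counts at stage 2 (SD 0.168) and 0.893% at stage 5 (SD 0.159). Among the 24 embryos of stage 2 their share ran from 0.153% in ZI094 embryo 2 over a median of 0.447% to 0.83% in RAL307 embryo 1. At stage 5 it ran from 0.607% in ZI160 embryo 3 over 0.889% to 1.5% in RAL357 embryo c (the columns of RAL357 carry no replicate number and its embryos are called a, b and c here). The stages thus overlapped: the RAL307 line mean was 0.741% at stage 2, above the stage 5 mean of RAL517, 0.722%. These are shares of the RNA that a poly(A) capture kept, and for rRNAs and tRNAs they are no measure of the total rRNA or tRNA. How fully the capture kept each mRNA at each stage was not measured. In RNA of whole embryos, more mitochondria, more RNA in each and less RNA of other genes cannot be told apart.

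Per length of the gene, the mRNA levels spanned a wide range and fell into nearly the same order at both stages (Spearman's rho 0.99 over 13 genes, given as a description). On the scale of CPM per kb at stage 5, mt:CoI, the catalytic subunit of complex IV, led at 2553 (SD 541 over 8 line means), with mt:CoIII at 2409 (SD 631), mt:CoII at 1308 (SD 274) and mt:ATPase6 at 1018 (SD 104) behind it. Middle levels per kb were those of mt:Cyt-b at 689, mt:ND1 at 488, mt:ND4 at 319, mt:ND5 at 282, mt:ATPase8 at 225 and mt:ND3 at 168, and the lowest those of mt:ND4L at 102, mt:ND2 at 55.7 and mt:ND6 at 34.9. The order of mt:CoI and mt:CoIII was not separated beyond the spread of the lines at either stage, and neither was that of mt:ND4 and mt:ND5. At stage 5 this also held for mt:ND5 and mt:ATPase8. At stage 2 it held for each neighbouring pair in the order mt:CoII, mt:ATPase6, mt:Cyt-b, mt:ND1 and mt:ND4. Of these, mt:Cyt-b was still above mt:ND1, and mt:ND1 above mt:ND4, in all 8 lines at stage 2. At stage 2 the level per kb of mt:CoI was 1103 (SD 414) and that of mt:ND6 11.7 (SD 3.22). The means of mt:ND3 and mt:ATPase8, at 65.2 and 64.6, stood in the reverse order of stage 5. That order was not separated beyond the spread of the lines, and mt:ND3 was above mt:ATPase8 in only 3 of 8 lines. The highest mRNA was at 94.3 times the lowest at stage 2 and at 73.1 times at stage 5.

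Both extremes were rRNAs. mt:lrRNA was at 12606 CPM per kb at stage 2 (SD 2215) and 25702 at stage 5 (SD 4161), 10.1 times the level of mt:CoI at stage 5. mt:srRNA was at 6.04 CPM per kb at stage 2 (SD 2.28) and 7.18 at stage 5 (SD 1.95), below every mRNA in the mean over lines at both stages. The counts of mt:lrRNA were 4359 times those of mt:srRNA at stage 2 and 6539 times at stage 5, as means over 8 lines. The stage 5 mean was raised by RAL360 embryo 3, whose ratio of 12555 rests on 1 count of mt:srRNA. Embryos 1 and 2 of that line were at 4720 and 5376.

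**Figure D1:**
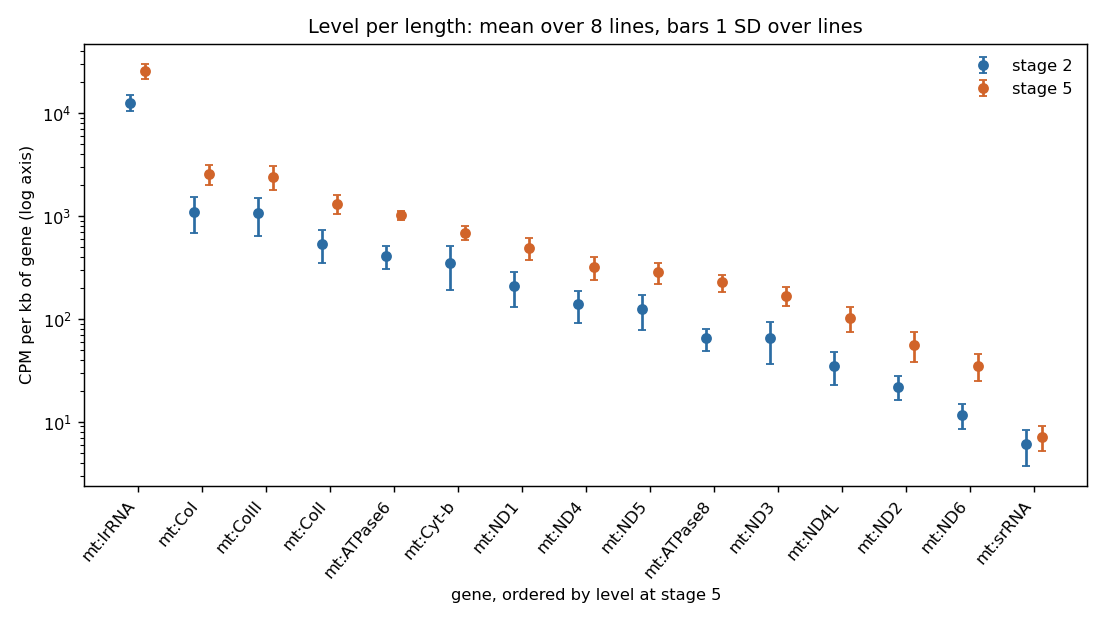
Level per length of the 13 mRNAs and 2 rRNAs of the mitochondrial genome at stage 2 and stage 5, in CPM per kb on a log axis; points are means over 8 lines and bars their SD. mt:lrRNA stands at 25702 CPM per kb at stage 5 and mt:srRNA at 7.18, with the mRNAs between them from mt:CoI at 2553 to mt:ND6 at 34.9.

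The tRNAs were hardly sampled by these libraries. The 22 tRNA genes held 2848 of 41435486 mitochondrial counts, or 0.00687%, with 2 to 231 counts per embryo and a median of 48. No count fell on 3 of them (mt:tRNA:Asn-GTT, mt:tRNA:Phe-GAA and mt:tRNA:Val-TAC), which allows up to 3 counts each over the 48 libraries together, and 13 were under 10 counts in every embryo. The 3 highest, mt:tRNA:Gly-TCC with 961 counts, mt:tRNA:Tyr-GTA with 572 and mt:tRNA:Leu-TAA with 282, held 63.7% of the tRNA counts. mt:tRNA:Gly-TCC was at 0.348 CPM (SD 0.245 over 8 lines) at stage 2 and at 1.28 CPM (SD 0.942) at stage 5. Depth limits what can be said of the others.

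All of the 13 mRNAs rose from stage 2 to stage 5, by 1.08 to 1.82 on the log2 scale with a median of 1.34. The test was edgeR's quasi-likelihood F-test with line as a term over 48 embryos, at an adjusted p under 0.01. This measure is relative: over 10193 genes tested, 92.5% were called and 55.8% were called higher, and the median change of all genes was +0.61. Size factors of DESeq2 and total counts moved the median of all genes to 0.78 and 0.36 and that of the mRNAs with it. The median of the mRNAs was 0.73 above that of all genes, and this gap depended on the genes and embryos in the fit: it was 0.31 with no filter on low counts (15618 genes), 0.35 with counts summed by line (11923 genes), 0.52 in Raleigh embryos alone and 1.149 in Zambia embryos alone. All 13 were also called without the 2 libraries that stood apart.

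Complex I genes rose by 1.25 to 1.60. mt:ND1 ran from 68.3 over 201 to 345 CPM (lowest, median and highest of 24 embryos) at stage 2 and from 329 over 427 to 752 CPM at stage 5, so that RAL307 embryo 3 was the only one of stage 2 above any embryo of stage 5. Its change was +1.30 (SE 0.12, adjusted p = 2.64e-14). mt:ND4 ran from 54.5 over 191 to 305 CPM at stage 2 and from 274 over 402 to 693 CPM at stage 5, with a change of +1.25 (SE 0.12, adjusted p = 4.2e-13). The values of mt:ND4 overlapped through RAL307, whose embryos were the highest of stage 2 and among the lowest of stage 5. mt:ND5 rose from 213 to 485 CPM (means over 8 lines, SD 79.7 and 110; change +1.27), mt:ND3 from 23.1 to 59.6 CPM (SD 10.2 and 12.8; +1.47) and mt:ND2 from 22.5 to 57.0 CPM (SD 5.70 and 18.4; +1.34). The low genes mt:ND4L, from 10.2 to 29.6 CPM (SD 3.55 and 8.02), and mt:ND6, from 6.14 to 18.3 CPM (SD 1.69 and 5.31), both changed by +1.60.

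Cytochrome c oxidase genes changed by close to the same amount. mt:CoI ran from 535 over 1745 to 2743 CPM at stage 2 and from 2286 over 3701 to 6150 CPM at stage 5, the lowest embryo being of ZI094 and the highest of RAL357. Its change was +1.28 (SE 0.11, adjusted p = 8.51e-15), that of mt:CoII +1.34 (SE 0.11, adjusted p = 5.23e-16) and that of mt:CoIII +1.24 (SE 0.13, adjusted p = 3.81e-12). Embryos of the 2 stages overlapped for mt:CoI only between the top of stage 2 and the bottom of stage 5, while within each of the 8 lines all 3 embryos of stage 5 lay above all 3 of stage 2.

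The largest and the smallest change belonged to a subunit of ATP synthase and to the subunit of complex III. mt:ATPase8 ran from 3.92 over 10.8 to 14.9 CPM at stage 2 and from 21.4 over 35.7 to 52.2 CPM at stage 5, with no overlap of the 24 and 24 embryos, and changed by +1.82 (SE 0.085, adjusted p = 4.92e-24). The size of this change is uncertain, since how reads over the junctions of this short gene were assigned is not given. mt:ATPase6, whose gene overlaps mt:ATPase8, rose from 276 to 687 CPM (SD 70.6 and 70.2 over 8 lines, change +1.35). mt:Cyt-b ran from 99.2 over 375 to 1066 CPM at stage 2 and from 540 over 786 to 1594 CPM at stage 5, and its change was +1.08 (SE 0.14, adjusted p = 1.33e-09). The 2 stages overlapped widely for mt:Cyt-b, with RAL307 embryos 1 and 2 of stage 2, at 1066 and 820 CPM, above the stage 5 median. Line means of the 2 stages did not overlap for 11 of the 13 mRNAs, the exceptions being mt:CoIII and mt:Cyt-b. Of all genes tested, 40.1% had line means of stage 5 above all those of stage 2.

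**Figure D2:**
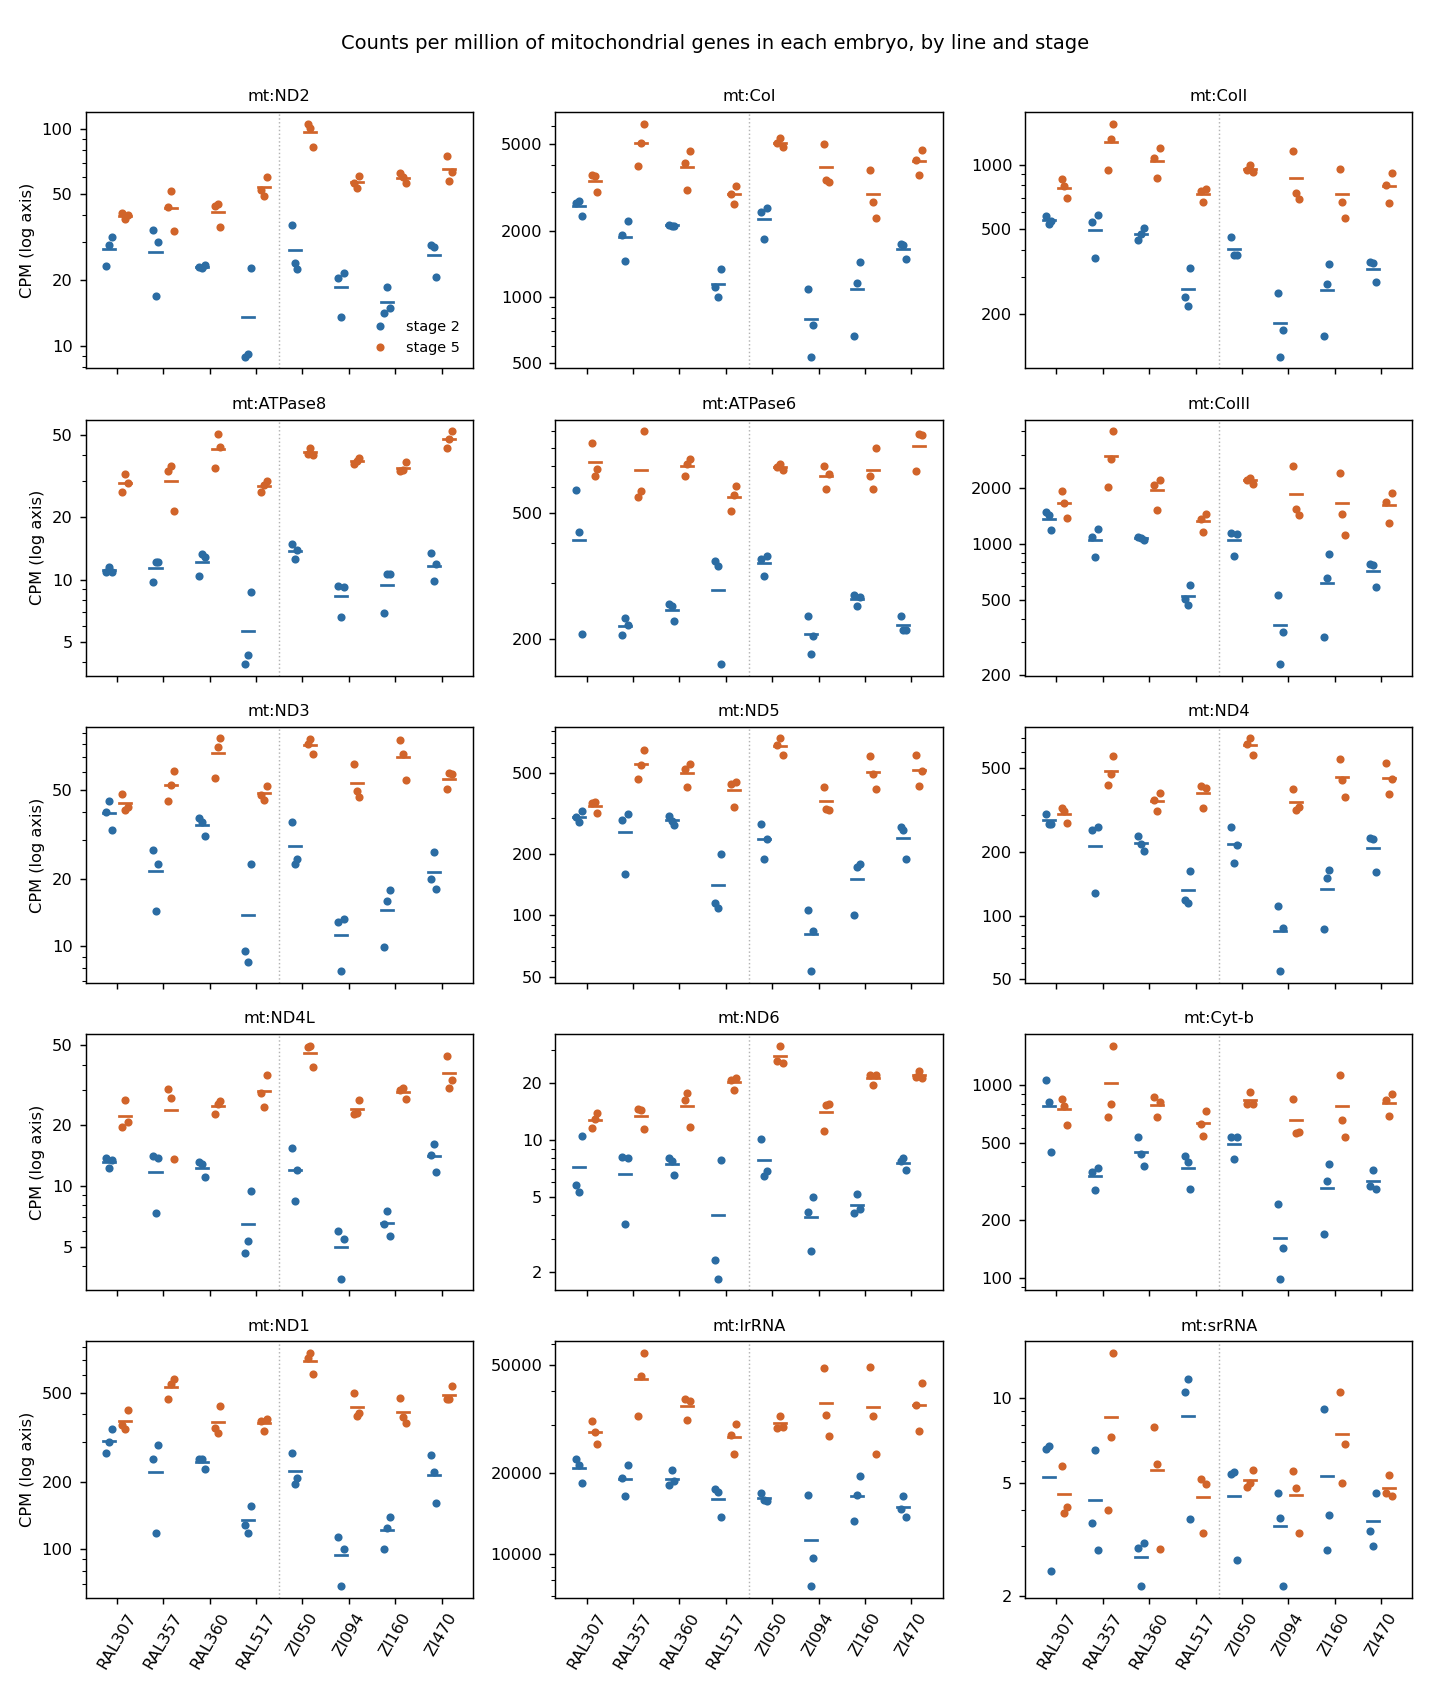
Level of each of the 13 mRNAs and 2 rRNAs in every embryo at stage 2 and stage 5, by line, in CPM on a log axis, with a bar at each mean of 3 embryos. mt:ATPase8 is between 3.92 and 14.9 CPM at stage 2 and between 21.4 and 52.2 CPM at stage 5, and mt:srRNA overlaps between the stages.

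Of the rRNAs 1 rose. mt:lrRNA ran from 7628 over 16682 to 22575 CPM at stage 2 and from 23440 over 31851 to 55393 CPM at stage 5, without overlap, and changed by +1.03 (SE 0.092, adjusted p = 3.38e-14). mt:srRNA ran from 2.16 over 3.75 to 11.7 CPM at stage 2 and from 2.93 over 5.01 to 14.4 CPM at stage 5, its difference was +0.31 (SE 0.18, adjusted p = 0.0945), and the embryos overlapped in all 8 lines. It had 1 to 378 counts per embryo. Of the 22 tRNAs 7 passed the filter on low counts and all 7 were called higher, by 1.17 to 2.31. A tRNA near 0 at stage 2 could pass that filter through stage 5 alone, so this count supports nothing about the tRNAs as a class. The largest changes were those of mt:tRNA:Trp-TCA (+2.31, SE 0.34), which directly follows mt:ND2 and shares 8 bases with a tRNA of the other strand, and of mt:tRNA:Tyr-GTA (+1.90, SE 0.27).

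Separate contrasts for each line, in 1 fit of 16 group means, gave changes of different size, and the differences between single lines were not tested. In RAL357, ZI094, ZI160 and ZI470 all 13 mRNAs were called higher, where 46.8%, 47.7%, 48.1% and 45.9% of all genes were. In RAL517 and ZI050 12 were called higher (46.4% and 47.8% of all genes), with mt:Cyt-b at +0.77 and +0.75 not called. In RAL360 10 were called (47% of all genes), and mt:ND1, mt:ND4 and mt:Cyt-b, at +0.56, +0.65 and +0.79, were not. In RAL307 3 were called (47.1% of all genes): mt:ATPase8 at +1.41 (SE 0.20), mt:ATPase6 at +0.81 (SE 0.22) and mt:ND4L at +0.77 (SE 0.25). These 3, of which mt:ATPase8 and mt:ND4L have uncertain levels, were the only genes among the 13 called higher in all 8 lines. With size factors of DESeq2 6 were, and leaving out 1 embryo gave 2 to 4.

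RAL307 and ZI094 formed the ends of the range. The median difference of the 13 mRNAs in RAL307 was 0.39, below the 0.50 of all genes tested in that line, and mt:Cyt-b differed by -0.06 (SE 0.30). RAL307 had the highest line mean of stage 2 for mt:CoI, with embryos at 2676, 2743 and 2348 CPM against 3604, 3547 and 3020 CPM at stage 5. In ZI094 the median was 2.16, against 0.62 for all genes, and no mRNA changed by less than 1.61. Its stage 2 embryos were at 1093, 535 and 747 CPM of mt:CoI, the lowest line mean of the stage, and its stage 5 embryos at 4986, 3420 and 3344 CPM. The line means of mt:CoI spanned 792 to 2589 CPM at stage 2 and 2935 to 5053 CPM at stage 5, so that the highest was 3.27 times the lowest at stage 2 and 1.72 times at stage 5. This ratio was smaller at stage 5 for 11 of the 13 mRNAs and larger for mt:ND2 (2.05 and 2.42 times) and mt:ND6 (2.00 and 2.17 times). For mt:lrRNA the change ran from +0.44 in RAL307, where it was not called, to +1.68 in ZI094.

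**Figure D3:**
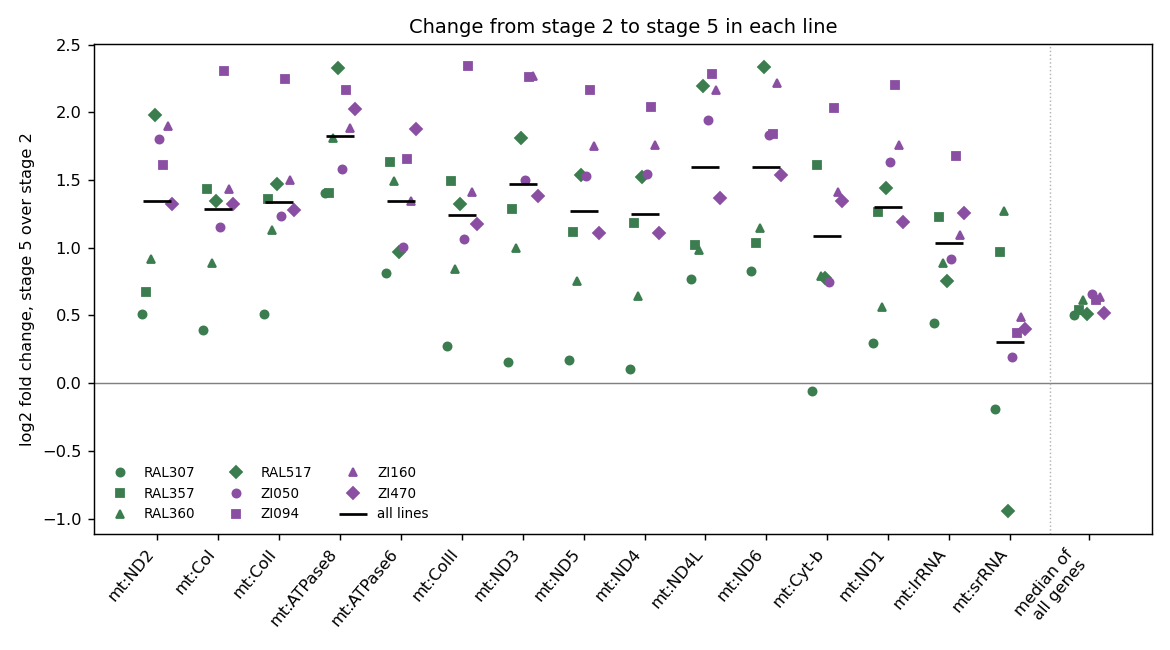
Log2 difference of stage 5 minus stage 2 for each of the 13 mRNAs and 2 rRNAs in each of the 8 lines, from the fit of 16 group means, with bars at the value over all lines and the median of all genes at the right. The 13 mRNAs are lowest in RAL307, with a median of 0.39 and mt:Cyt-b at -0.06, and highest in ZI094, with a median of 2.16.

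With embryos as replicates, and not with counts summed by line, the change with stage was called larger in Zambia than in Raleigh for mt:ND1 and mt:ND4. In the test of stage by population, the change in Zambia minus that in Raleigh was +0.80 for mt:ND1 (SE 0.19, adjusted p = 0.00281) and +0.74 for mt:ND4 (SE 0.21, adjusted p = 0.00979). All 13 mRNAs had a positive difference, with a median of 0.60 where the median of all genes was 0.03, and 11 had an unadjusted p under 0.05. Of all genes, 9.14% were called in either direction and 4.52% in that of a larger change in Zambia. The split of these calls depended on the scaling: 461 of 932 calls were in the direction of Zambia with TMM, 349 of 907 with size factors of DESeq2 and 225 of 1006 with total counts.

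For mt:ND1 the Raleigh embryos ran from 117 over 252 to 345 CPM at stage 2 and from 329 over 379 to 579 CPM at stage 5. The Zambia embryos ran from 68.3 over 150 to 268 CPM and from 367 over 472 to 752 CPM. The populations overlapped at both stages, with Zambia lower in the median at stage 2 and higher at stage 5. The change of mt:ND1 was +0.30, +1.27, +0.56 and +1.44 in RAL307, RAL357, RAL360 and RAL517 and +1.63, +2.20, +1.76 and +1.19 in ZI050, ZI094, ZI160 and ZI470, so that ZI470 fell among the Raleigh lines. For mt:ND4 the same order of lines gave +0.10, +1.18, +0.65 and +1.52 in Raleigh and +1.55, +2.04, +1.76 and +1.11 in Zambia. This test counts embryos as replicates. With the counts summed over the embryos of each line, so that 4 lines stood against 4, neither was called (adjusted p = 0.60 and 0.66), and only 2 of 11923 genes were. mt:ND1 was called in all 48 fits that left out 1 embryo and mt:ND4 in 11 of them, and without the 2 libraries that stood apart 3 mRNAs were called.

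At stage 2 none of the 13 mRNAs was called between the populations with edgeR at an adjusted p under 0.01, nor with DESeq2's likelihood ratio test. Of all genes 6.75% were called. At an unadjusted p under 0.05 there were 4, all lower in Zambia, and the median difference of the 13 was -0.41 against 0.01 for all genes. mt:CoII ran from 219 over 490 to 581 CPM in Raleigh and from 126 over 312 to 458 CPM in Zambia, a difference of -0.60 (SE 0.20, adjusted p = 0.0387). mt:lrRNA, at 18700 CPM in Raleigh (SD 1954 over 4 lines) and 14681 in Zambia (SD 2343), differed by -0.34 (SE 0.11, adjusted p = 0.0406). The line means of the populations overlapped for all 13 mRNAs, where 5.93% of all genes had line means that did not overlap.

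At stage 5 mt:ND2, a membrane subunit of complex I, was the only mRNA called between the populations. Its 12 Raleigh embryos ran from 34.0 over 43.8 to 60.2 CPM and its 12 Zambia embryos from 53.4 over 61.7 to 106 CPM. The embryos overlapped through RAL517, the highest Raleigh line, and the line means did not, with 39.8 to 53.8 CPM in Raleigh and 56.7 to 96.4 CPM in Zambia. The difference was +0.63 (SE 0.12, adjusted p = 0.000587), called in all 24 fits that left out 1 embryo and not with counts summed by line (adjusted p = 0.27), a test that called 1 of 11752 genes. Of all genes 13.3% were called, 6.01% of all as higher in Zambia, and 7.37% had line means that did not overlap. With TMM 601 of 1326 calls were higher in Zambia and with total counts 322 of 1468.

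The other mRNAs of stage 5 did not pass. The median difference of the 13 was 0.28, against 0.00 for all genes, and 7 had an unadjusted p under 0.05. These were mt:ND1, mt:ND2, mt:ND3, mt:ND4, mt:ND4L and mt:ND6 of complex I and mt:ATPase8, with adjusted p from 0.0258 to 0.0992 apart from mt:ND2. The 3 genes of complex IV lay between -0.20 and 0.07 and mt:lrRNA at 0.02.

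**Figure D4:**
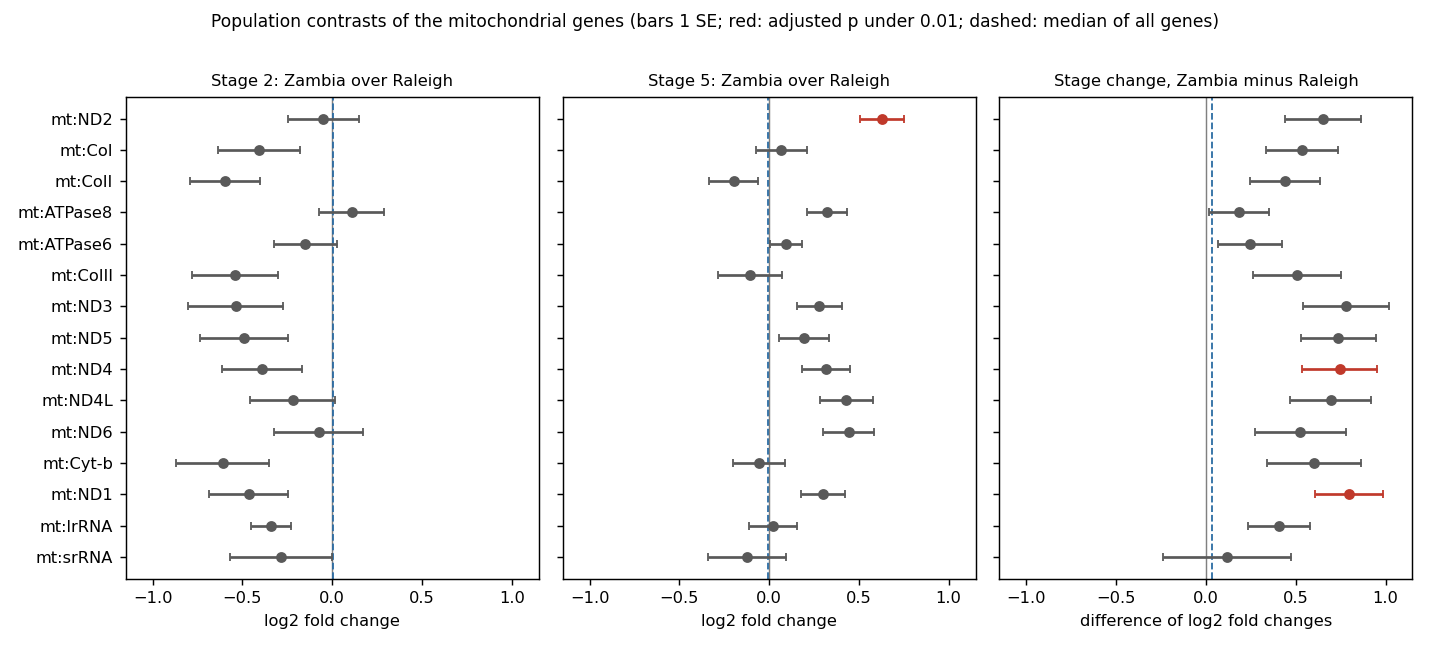
Log2 difference of Zambia over Raleigh at stage 2 and at stage 5, and the difference between their changes from stage 2 to stage 5, for the 13 mRNAs and 2 rRNAs; points are estimates, bars 1 SE, red marks an adjusted p under 0.01 and dashed lines are medians of all genes. mt:ND2 is called at stage 5 (+0.63) and mt:ND1 and mt:ND4 in the stage change (+0.80 and +0.74), and none at stage 2.

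Differences among the 4 lines of a population were called for more of the mRNAs than differences between the populations, in tests of their own sizes that were not compared. Among Raleigh lines at stage 2, 4 of the 13 mRNAs were called (20.4% of all genes): mt:CoI, mt:CoII, mt:CoIII and mt:Cyt-b, each highest in RAL307. mt:CoIII was at 1366 CPM in RAL307 (SD 159 over 3 embryos), 1051 in RAL357 (SD 179), 1076 in RAL360 (SD 20.2) and 529 in RAL517 (SD 67.3; adjusted p = 0.000112). mt:Cyt-b was at 779 CPM in RAL307 with a wide spread (SD 309) and at 336 to 452 CPM in the other lines. Its call held in only 1 of 12 fits that left out 1 embryo, that of mt:CoII in 10 and those of mt:CoI and mt:CoIII in all 12.

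Among Zambia lines at stage 2, 5 were called (16.8% of all genes): mt:CoI, mt:ATPase6, mt:ND5, mt:ND4L and mt:ND1. ZI094 was the lowest line for each of them. mt:ND1 was at 94.0 CPM in ZI094 (SD 23.3), 121 in ZI160 (SD 20.1), 215 in ZI470 (SD 51.7) and 223 in ZI050 (SD 38.9; adjusted p = 0.00413). Which genes were called at stage 2 depended on single embryos. Leaving out 1 embryo gave 2 to 8 calls in Raleigh, 2 without RAL517 embryo 1 or 2 and 8 without RAL517 embryo 3, and 1 to 8 in Zambia, 1 without ZI050 embryo 3 or ZI094 embryo 3 and 8 without ZI470 embryo 1.

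Among Raleigh lines at stage 5, 6 were called (24% of all genes), mt:CoI, mt:CoII, mt:CoIII, mt:ND1, mt:ND4 and mt:ND5, along with mt:lrRNA. RAL357 was the highest line for all 7. mt:ND1 was at 469, 547 and 579 CPM in RAL357, and its line means in the other 3 lines were 365 to 373 CPM. None of the 13 was called without RAL357 embryo c or without RAL517 embryo 1, so that these calls rest on single embryos. The call of mt:lrRNA held in only 1 of 12 fits that left out 1 embryo. Among Zambia lines at stage 5, 7 were called (47% of all genes): mt:ND1, mt:ND2, mt:ND4, mt:ND4L, mt:ND5 and mt:ND6 of complex I and mt:ATPase8. ZI050 was highest for the 6 genes of complex I. mt:ND2 was at 106, 101 and 82.9 CPM in ZI050 and at 53.4 to 75.3 CPM in the 9 embryos of the other lines (adjusted p = 0.000214), so that ZI050 stood clear of them. mt:ND1 was at 716, 752 and 607 CPM in ZI050 and at 367 to 534 CPM in the others (adjusted p = 0.000325). Leaving out 1 embryo gave 6 to 9 calls. Of the tRNAs mt:tRNA:Gly-TCC was called among Raleigh lines at both stages and among Zambia lines at stage 5, with line means of 0.365 CPM in RAL307 to 3.14 CPM in RAL360 at stage 5. The call among Zambia lines held in only 3 of 12 fits that left out 1 embryo. mt:tRNA:Leu-TAG was called among Raleigh lines, with a highest line mean of 0.586 CPM in RAL360, and mt:tRNA:Ala-TGC among Zambia lines, with 0.71 CPM in ZI160. Both could pass the filter on low counts through that line alone, and nothing is read from these calls.

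Embryos of 1 line differed more in mitochondrial mRNAs than in most genes at stage 2. In the fit between populations the biological coefficient of variation, which there holds the spread of the lines as well, had a median of 0.38 over the 13 mRNAs and of 0.13 over all genes at stage 2, and of 0.23 and 0.29 at stage 5. Within the 4 lines of Raleigh it was 0.22 at stage 2, against 0.086 for all genes, and within those of Zambia 0.23 against 0.099. At stage 5 the within-line values were 0.15 against 0.18 in Raleigh and 0.14 against 0.15 in Zambia. These values are descriptions.

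After line means were removed, the members moved together only in part. The correlation of log2(CPM + 0.5) over the 24 embryos of stage 2, which share their libraries and scaling, had a median of 0.65 over the 78 pairs of mRNAs, against 0.39 over pairs of nuclear genes of oxidative phosphorylation and 0.00 over pairs of all genes. mt:CoI followed mt:CoIII (0.98) and mt:ND4 followed mt:ND5 (0.97). The lowest value was -0.62, of mt:ATPase6 with mt:ND6. mt:ATPase6 correlated with mt:srRNA at 0.63 and with mt:Cyt-b at 0.65, and mt:srRNA correlated with the mRNAs at a median of -0.54.

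This contrast is seen in single embryos of RAL517 and RAL307, and not in all lines. In RAL517 at stage 2, mt:ATPase6 was at 353, 339 and 167 CPM in embryos 1, 2 and 3, while mt:ND2 was at 8.89, 9.19 and 22.8 CPM. mt:srRNA in the same embryos was at 10.5, 11.7 and 3.74 CPM and mt:ND6 at 2.33, 1.85 and 7.84 CPM. Embryos 1 and 2 were thus high in the first gene of each pair and low in the second, and embryo 3 the reverse. In RAL307 mt:ATPase6 was at 588, 435 and 208 CPM and mt:ND6 at 5.80, 5.30 and 10.5 CPM, again with embryo 3 apart. In RAL357 and ZI160 the embryo highest for mt:ATPase6 was the lowest for mt:ND6. The same embryo was lowest for both genes in RAL360, ZI050, ZI094 and ZI470. In RAL360 mt:ATPase6 was at 258, 254 and 228 CPM and mt:ND6 at 8.07, 7.78 and 6.51 CPM.

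At stage 5 the median correlation of the mRNAs was 0.26, from -0.69 to 0.99, against 0.35 for the nuclear genes and 0.04 for all genes. The 3 genes of complex IV, mt:Cyt-b, mt:ND4 and mt:ND5 kept high values with each other and with mt:lrRNA (mt:CoII with mt:CoIII 0.99, mt:CoIII with mt:lrRNA 0.97, mt:ND4 with mt:ND5 0.98). mt:ND2, mt:ND4L, mt:ND6 and mt:ATPase8 had positive values with each other, from 0.34 to 0.70, and values from -0.59 to -0.06 with the 3 genes of complex IV. RAL357 embryo c was the highest of all embryos for mt:CoI (6150 CPM), mt:CoIII (4015 CPM) and mt:lrRNA (55393 CPM) and the lowest of stage 5 for mt:ND4L (13.7 CPM), mt:ATPase8 (21.4 CPM) and mt:ND2 (34.0 CPM). Without the 2 libraries that stood apart the medians of the 13 mRNAs were 0.66 at stage 2 and 0.25 at stage 5. The medians of the nuclear genes were then 0.39 and 0.48, and that of all genes was -0.002 at both stages.

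**Figure D5:**
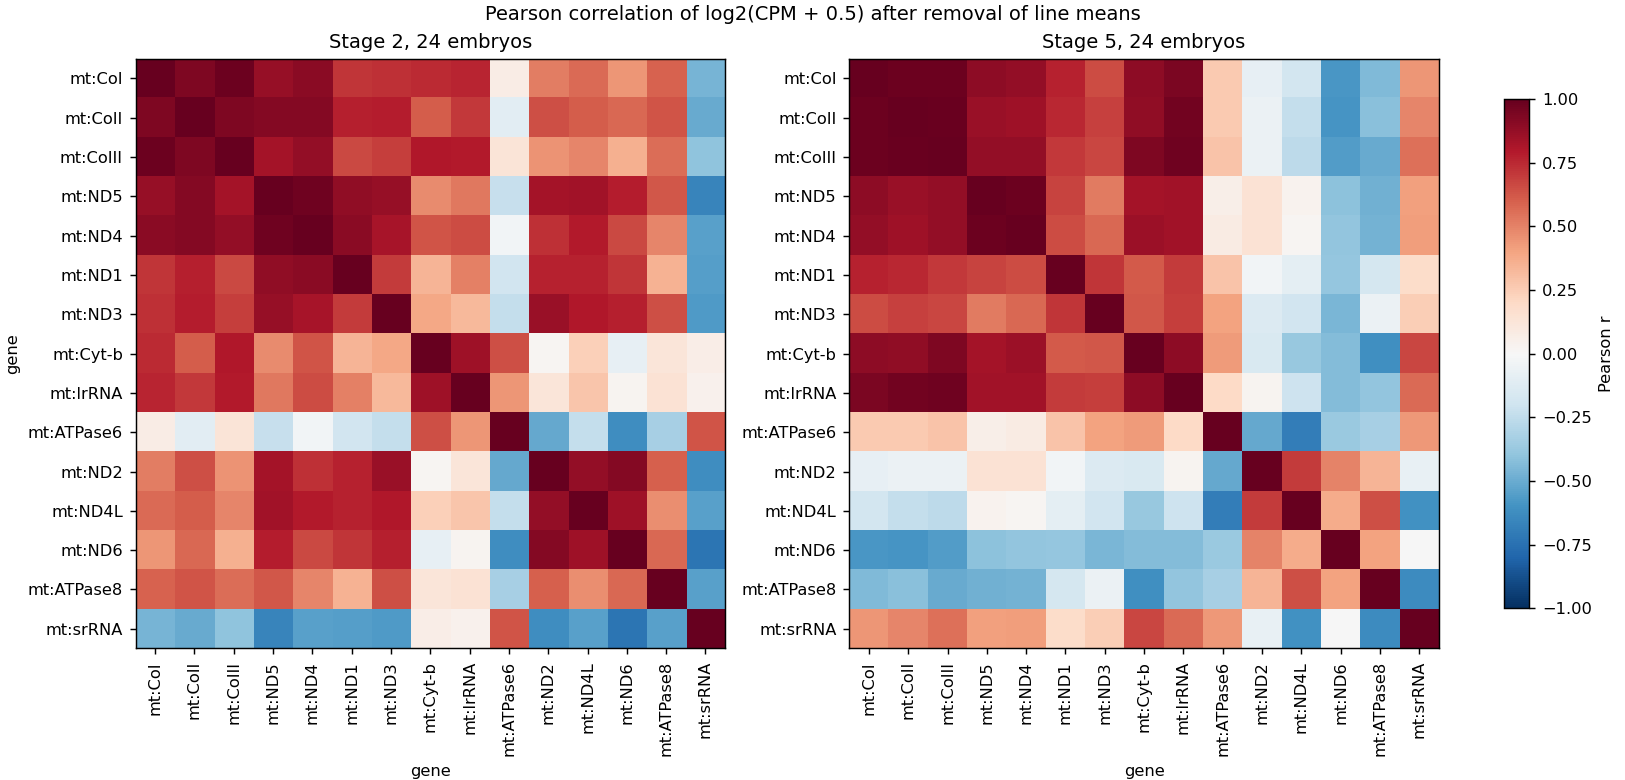
Pearson correlation of log2(CPM + 0.5) between pairs of the 13 mRNAs and 2 rRNAs over 24 embryos of stage 2 and 24 of stage 5, after removal of line means. The median over pairs of mRNAs is 0.65 at stage 2 and 0.26 at stage 5, and mt:ATPase6 stands against mt:ND6 at stage 2 (-0.62).

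The nuclear genes that serve the mitochondrial genome did not change as its mRNAs did. Of the 21 genes of the machinery of mitochondrial DNA and RNA 18 were tested, with 3 called higher and 12 lower from stage 2 to stage 5 and a median difference of -1.19. Of all genes 55.8% were called higher and 36.7% lower. PolrMT, the RNA polymerase, fell by 4.64 on the log2 scale (SE 0.074), MTPAP, the mitochondrial poly(A) polymerase, by 3.55, PNPase, a ribonuclease, by 2.86 and mtSSB, which binds single-stranded mitochondrial DNA, by 2.67. The genes called higher were mTTF, a transcription termination factor (+1.44), mtTFB2, an initiation factor (+1.27), and TFAM, the packaging and initiation factor of mitochondrial DNA (+0.40). The change of TFAM lies below the median of all genes, 0.61.

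Of the 91 nuclear genes of oxidative phosphorylation 74 were tested, and 56 were called higher and 12 lower, with a median of 0.89 where that of all genes was 0.61. By complex the median was 0.87 for complex I, 0.64 for complex III, 1.06 for complex IV and 0.93 for complex V, beside 1.34, 1.08, 1.28 and 1.59 for the mitochondrial genes of the same complexes. The top of the range was held by UQCR-6.4L (+7.90) and SdhBL (+7.47), the paralogues of subunits of complex III and complex II. The bottom was held by SdhA, the flavoprotein subunit of complex II (-1.71). Other paralogues in the list also had large changes, among them ATPsynbetaL (+7.07) and SdhAL (+6.77). A gene hardly counted at the earlier stage could pass the filter on low counts through the later stage alone. The paralogues named here are among the 56 called higher and entered the median of the list, so both may be raised by such genes. In the test of stage by population 1 of these 74 genes was called, beside 9.14% of all genes, and their median was 0.05.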

How the data were processed

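The libraries were made with a stranded mRNA kit from total RNA of single embryos. Per the submitters' processing notes reads were trimmed with cutadapt, aligned with HISAT2 2.1.0 and counted with featureCounts. The study's methods name FlyBase release 6 as genome and annotation; the counting settings are not given in the sources used here. The deposited values are raw counts per gene, with no normalization by the authors; their DESeq2 comparisons were not used. Genes were named, classed and placed with a BDGP6 annotation. Counts passing filterByExpr (minimum count 10, minimum total 15, by line and stage) were TMM-scaled and tested with edgeR 4.0.16 (R 4.3.3; quasi-likelihood F-test, Benjamini-Hochberg adjusted p under 0.01 over all genes tested); levels are TMM-scaled CPM. DESeq2 1.42.0 was an alternative. The procedure was tested on simulated data with the same spread for all genes and, for the population tests, no differences among lines of a population. Those data cannot show how tests with embryos as replicates fare when lines differ. All mRNA and rRNA genes are named; of the tRNAs, the 3 highest and the 2 largest called changes per comparison. The members and lists were chosen with earlier results of these data known. Comparisons share embryos. By the study's methods embryos came from many mothers, and a shared mother was held unlikely. Tests between populations treat embryos as replicates; line sums were an alternative. Counts limit the precision of mt:srRNA and of the tRNAs.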

Additional observations from a re-analysis of the deposited data

Results flagged for a closer look

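In 3 of 68 groups of 4 line means looked at for the 13 mRNAs and 2 rRNAs, alone or as shares, 1 line stood apart from the other 3 by Dixon's ratio of gap to range, where chance alone sets about 1 in 20 groups apart. mt:ATPase8 at stage 2 was at 5.66 CPM in RAL517 and at 11.1 to 12.2 CPM in the other Raleigh lines (ratio 0.834). mt:ATPase8 at stage 5 was at 43.0 CPM in RAL360 and at 28.4 to 30.1 CPM in the others (ratio 0.880); this gene overlaps mt:ATPase6. mt:ND1 at stage 5 was at 531 CPM in RAL357 and at 365 to 373 CPM in the others (ratio 0.951).

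The change from stage 2 to stage 5 was larger in Zambia than in Raleigh by 0.80 (log2) for mt:ND1 and by 0.74 for mt:ND4, by the test of stage by population with embryos as replicates. Neither was called with counts summed by line (adjusted p = 0.60 and 0.66 with edgeR), and mt:ND4 was called in 11 of the 48 fits that left out 1 embryo.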

How the results depend on the processing

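The rise of all 13 mRNAs from stage 2 to stage 5 was called at every setting tried and in every fit that left out 1 embryo. In the tests of stage, stage by population and population, no called value of an mRNA, of mt:lrRNA or of mt:tRNA:Gly-TCC changed sign at any setting tried. Tests among lines have no sign, and neither the other tRNAs nor single genes in the contrasts by line were followed for this. The number of the 13 mRNAs called in all 8 lines, 3, was 6 at an adjusted p under 0.05, 6 with DESeq2's likelihood ratio test and 6 with its size factors, and 2 to 4 without 1 embryo. The 2 mRNAs called for stage by population became 6 at an adjusted p under 0.05, 1 with DESeq2 size factors, 1 with total counts, 1 with no filter, 0 with counts summed by line, and 1 to 6 without 1 embryo. Between populations at stage 2 the 0 calls became 1 at an adjusted p under 0.05 and 0 to 0 without 1 embryo. At stage 5 the 1 call became 4 at an adjusted p under 0.05 and 0 with counts summed by line, and was 1 to 2 without 1 embryo. Among lines at stage 2, the 4 calls of Raleigh became 10 at an adjusted p under 0.05, 10 with DESeq2's test, 9 with no filter and 2 to 8 without 1 embryo, and the 5 of Zambia 11, 12, 8 and 1 to 8. Among Raleigh lines at stage 5 the 6 calls became 0 to 7 without 1 embryo, and among Zambia lines the 7 became 6 to 9. Without mt:CoI the share of the mRNAs was 0.279% at stage 2 and 0.535% at stage 5. The causes were not tested.

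Replicate numbers showed little pairing of the embryos in the median. The median correlation of deviations of same-numbered embryos was 0.035 at stage 2, 0.017 at stage 5 and 0.021 between the stages of a line. Embryos of other numbers gave -0.018 at stage 2 and -0.0008 at stage 5. Of 63 same-numbered pairs, 20 at stage 2 and 14 at stage 5 were over 0.1, up to 0.32 and 0.35. Between stages 10 of 21 embryos correlated best with their own number among the 3 of the line. With the replicate number as a block, which leaves out the 6 unnumbered embryos of RAL357, calls were 13 for stage, 3 in all lines, 2 for stage by population, 0 and 1 between populations, 7 and 3 among Raleigh and Zambia lines at stage 2, and 0 among Raleigh lines at stage 5. Among Zambia lines at stage 5 there were 8. The same 42 embryos without the block gave 2 between populations at stage 5, 6 and 5 among Raleigh and Zambia lines at stage 2 and 1 and 7 at stage 5, and the same counts as with the block for the others.

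Calls over all genes moved by over 1.5 times between tools or units of replication. DESeq2's test called 2684 and not 1540 genes among Raleigh lines at stage 2, 2390 and not 1272 among Zambia lines and 775 and not 511 between populations at stage 2. Counts summed by line called 0 and 1 genes between populations at stage 2 and 5, in place of 511 and 1326, and 2 in place of 932 for stage by population. The fit with the block called 331 between populations at stage 2, 721 at stage 5 and 1022 among Raleigh lines at stage 2, and the same 42 embryos without it 424, 903 and 1011. At an adjusted p under 0.05 the calls were 2956 among Raleigh lines and 2551 among Zambia lines at stage 2, 4487 in place of 2402 among Raleigh lines at stage 5, 1217 and 2659 between populations, and 1795 for stage by population. The depth of RAL360 stage 5 embryo 3 limits what it shows of mt:srRNA, of which it held 1 count.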
